A study of Bos taurus with 12 samples.

Results

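Immediate-early genes were examined in intralobular stroma and epithelium captured by laser from bovine mammary explants that had been cultured for 2 h. The set held 10 genes, FOS, FOSB, JUN, JUNB, EGR1, ATF3, DUSP1, IER2, IER3 and MYC, of the 9155 genes that have a probe set with a single gene symbol on the Bovine Affymetrix GeneChip. The members were chosen by name, and every probe set whose only symbol is a member was read, 19 of the 24016 probe sets other than controls. The tissue came from 6 dry, pregnant Holstein cows biopsied 3 weeks prepartum, and cows 1 and 2 had a higher lactation number than cows 3 to 6. Stroma and epithelium of each cow were captured from explants kept in medium with insulin, hydrocortisone and the thymidine analogue BrdU, and the amplified RNA gave 6 stromal and 6 epithelial arrays. All 12 arrays shared the biopsy, the transport in cold medium, the 2 h of culture and the hormones. No uncultured tissue was among these arrays, so a change brought about by culture could not be measured, and the levels below are levels after culture. The stromal captures were aimed at fibroblasts by avoiding blood vessels and visible immune cells.

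Immediate-early genes are transcribed within minutes of a stimulus by factors already present in the cell, without new protein synthesis. Growth factors, serum, wounding and handling of tissue are well-known stimuli, which reach the genes largely through MAP kinases. Many of the products are transcription factors that switch on later genes, and others, such as DUSP1, turn the signal off again. Their mRNAs are short-lived, so the level at a given time reflects recent transcription.

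The deposited values are log2 intensities after robust multiarray averaging (RMA). Array medians lay between 2.95 and 3.08, and single values ran from 0.78 to 14.4. Differences are given as stroma minus epithelium within cows, so 1 unit is a doubling, and a negative difference means a lower level in stroma. They were tested with limma with cow as a block over the brightest probe sets, as many as the study had kept by detection calls (means of 3.57 or more), and a difference was called at a Benjamini-Hochberg adjusted p below 0.05. Each gene was represented by its brightest tested probe set, and 5222 genes were tested. In captured tissue, fewer cells holding a transcript and less of it per cell cannot be told apart.

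By luminal epithelial and fibroblast markers, the captures matched their labels. All 10 luminal epithelial markers were lower in stroma, among them KRT7 (log2 difference -3.91), KRT8 (-3.01) and EPCAM (-4.04), and all 9 fibroblast markers were higher, among them VIM (3.51), COL1A1 (5.43) and S100A4 (4.25). The 4 endothelial and the 2 B and plasma cell markers tested were also higher in stroma. Of 5 macrophage and 3 T and NK cell markers tested, 0 were called, with 2 and 0 at an unadjusted limma p below 0.05. Of 6 myoepithelium and smooth muscle markers tested, all 6 means were higher in stroma and 1 was called, against 4.48% of all tested genes. Their mean was 6.78 ± 0.33 in stroma and 5.69 ± 0.53 in epithelium, higher in stroma in 6 of 6 cows. Among them, KRT5 (9.02 in stroma, 8.72 in epithelium) and KRT14 (6.02 and 5.37) were not lower in stroma, and neither was called. The arrays also differed in technical measures. Polyadenylated control RNAs, spiked into the samples, ran from 4.15 to 10.99 in stroma and from 3.07 to 6.58 in epithelium, and an array's mean correlation with the others of its tissue from 0.723 to 0.820 in stroma and from 0.838 to 0.880 in epithelium. The 3' minus 5' log2 difference of the GAPDH control sets ran from 2.31 to 4.75 in stroma and from 0.93 to 3.59 in epithelium. It was higher in stroma in 5 of 6 cows, and its part in differences between probe sets of a gene was not tested. The median difference of all tested probe sets was -0.18. Scaling every array to one common median of the tested sets moved it by 0.17.

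All 10 genes were at bright probe sets in both tissues. In stroma, 9 of the 10 lay in the top 10% of genes by the brightness of their brightest probe set, and in epithelium all 10 did. The lowest rank in stroma was that of ATF3, brighter than 83.5% of genes, and the lowest in epithelium that of IER3, brighter than 90.6%. JUN was brighter than 99.7% of genes in stroma and 99.8% in epithelium. Over all members and arrays, the lowest was 3.90, for ATF3 in the stroma of cow 4, still above every array median, and the highest 12.14, for EGR1 in the epithelium of cow 5. These ranks describe probe set brightness, which depends on the probes as well as on the transcript, so they give no order of transcript abundance among the genes.

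Between the tissues, 1 of the 10 genes passed the test. ATF3 was lower in stroma, against 4.62% of all tested genes called in that direction, and 0 members were higher in stroma, against 4.48%. At an unadjusted p below 0.05 there were 2 members lower in stroma, ATF3 and FOS, and 0 higher, where 14.6% and 8.39% of tested genes passed. The mean was lower in stroma for 7 of the 10 and higher for 3, where 3133 of the 5222 tested genes were lower and 2089 higher. The median difference was -0.34 over the members and -0.20 over all tested genes. The 12 values of every member overlapped between the tissues, as they did for all but 6.38% of tested genes. FOS and DUSP1 were lower in the stroma of all 6 cows, 2 of 10 members where 9.59% of tested genes showed that pattern, and 0 members were higher in the stroma of all 6, where 6.99% did.

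**Figure D1:**
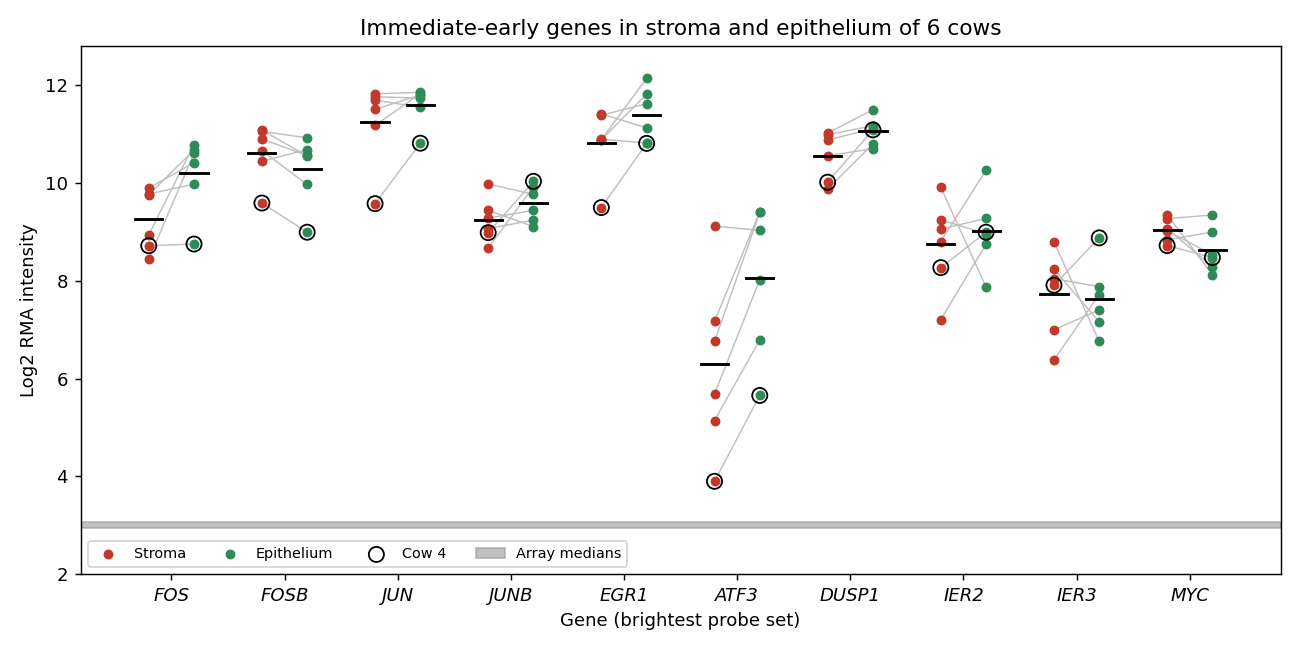
The 12 log2 RMA intensities of each immediate-early gene, read from its brightest probe set, with stroma on the left and epithelium on the right of each pair, a line joining the captures of a cow, a bar at the mean and a ring on cow 4. All genes lay above the band of array medians (2.95 to 3.08), and the tissues overlapped for all 10 genes.

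FOS and FOSB are the FOS family members of the set. They cannot pair with themselves and bind DNA as heterodimers with JUN proteins, which form the transcription factor AP-1. FOS ran from 8.44 through a median of 9.35 to 9.90 in stroma, and from 8.75 through 10.51 to 10.78 in epithelium. The stromal values lay below the epithelial value of the same cow in 6 of 6 cows, by 2.17 in cow 1 at the most and by 0.03 in cow 4 at the least. FOS averaged 9.25 ± 0.63 in stroma and 10.20 ± 0.76 in epithelium (SD, n = 6 each), a difference of -0.95 (SE 0.41, 95% interval -1.87 to -0.02), which did not pass (limma, adjusted p = 0.205). Its dimmer probe set differed by -1.28 (SE 0.59), was lower in the stroma of 5 of 6 cows and did not pass either (limma, adjusted p = 0.232).

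FOSB ran from 9.59 through 10.78 to 11.08 in stroma, and from 8.99 through 10.56 to 10.92 in epithelium. The ranges overlapped almost entirely, and 5 of 6 cows had the higher value in stroma. FOSB averaged 10.62 ± 0.56 in stroma and 10.28 ± 0.70 in epithelium, and the difference of 0.34 (SE 0.33, 95% interval -0.40 to 1.08) did not pass (limma, adjusted p = 0.572). On its dimmer probe set the difference was 0.09 (SE 0.42), with 3 of 6 cows higher in stroma.

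JUN, the founding AP-1 subunit, is activated by the stress kinase JNK. Its brightest probe set ran from 9.58 through 11.60 to 11.82 in stroma, and from 10.81 through 11.77 to 11.85 in epithelium. Apart from cow 4, lowest in both tissues, the arrays lay between 11.17 and 11.85. The mean was 11.25 ± 0.86 in stroma and 11.59 ± 0.40 in epithelium, with a difference of -0.34 (SE 0.35, 95% interval -1.13 to 0.45; limma, adjusted p = 0.602).

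The 5 probe sets of JUN did not give the same difference. Ordered by mean brightness over both tissues, their differences were -0.34, -0.72, -1.38, -2.17 and -2.38. A low stromal value both lowers this brightness and enlarges the difference, so part of the order is built in. By epithelial mean alone, the dimmest was Bt.9153.1.S1_at (8.20, difference -1.38). Bt.13134.1.A1_at (8.38, -2.17) and Bt.13134.1.S1_at (8.42, -2.38) were brighter there but differed more. Bt.13134.1.S1_at, the dimmest over both tissues, was called. It averaged 6.03 ± 1.77 in stroma and 8.42 ± 0.69 in epithelium, which is 5.21-fold lower in stroma (difference -2.38, SE 0.56, 95% interval -3.65 to -1.11; limma, adjusted p = 0.0309). In 6 of 6 cows the stromal value was the lower. Both sets that share the number 13134, and Bt.9153.1.S1_at, were lower in all 6, but those other than Bt.13134.1.S1_at did not pass (both limma, adjusted p = 0.066). Among the tested probe sets of members, 2 of 17 were called lower in stroma and 0 higher, against 4.76% and 4.54% of all tested probe sets. Of the 17, 5 were lower in every cow, against 9.32% of tested probe sets. These 5 include the JUN sets named above as lower in all 6 cows, so they are not 5 separate genes. When the probe sets of a gene were averaged, JUN differed by -1.40 (limma, adjusted p = 0.0368).

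The stromal values of Bt.13134.1.S1_at split the cows. They were 4.71, 3.68, 6.77, 5.21, 7.96 and 7.87 in cows 1 to 6, while the epithelial values lay between 7.50 and 9.60. The control RNAs in the same stromal arrays read 4.28, 4.15, 7.10, 9.07, 10.99 and 10.39, so cows 1 and 2 were lowest and cows 5 and 6 highest in both. Cows 1 and 2 were also the cows with the higher lactation number. The part of the control RNAs and of lactation number in the JUN difference was not tested. The call was lost without cow 1, 2, 3 or 4 (limma, adjusted p between 0.0508 and 0.0985) and with no filter on dim probe sets (limma, adjusted p = 0.0697).

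**Figure D2:**
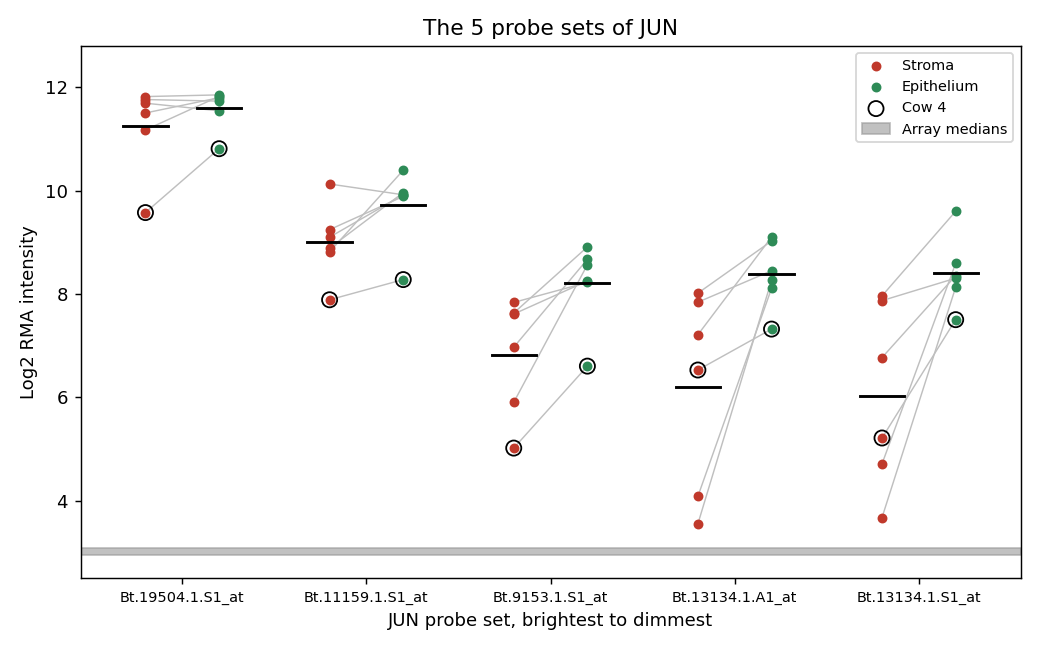
Log2 RMA intensity of the 5 JUN probe sets, ordered from brightest to dimmest by their mean over both tissues. Stroma is left and epithelium right of each pair, with lines joining a cow, bars at the means and rings on cow 4. In this order, which the stromal values help to set, the gap between the tissues widens from -0.34 to -2.38. The widest spread in stroma is on the sets numbered 13134.

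JUNB, an AP-1 subunit that can oppose JUN at some promoters, ran from 8.67 through 9.17 to 9.97 in stroma, and from 9.11 through 9.60 to 10.03 in epithelium. It averaged 9.24 ± 0.45 in stroma and 9.58 ± 0.38 in epithelium. The difference of -0.35 (SE 0.37, 95% interval -1.18 to 0.48) did not pass (limma, adjusted p = 0.613), and 4 of 6 cows were lower in stroma.

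EGR1, a zinc finger factor induced through serum response factor, ran from 9.50 through 10.89 to 11.41 in stroma, and from 10.81 through 11.37 to 12.14 in epithelium. It averaged 10.82 ± 0.70 in stroma and 11.39 ± 0.55 in epithelium. The difference of -0.56 (SE 0.37, 95% interval -1.41 to 0.28) did not pass (limma, adjusted p = 0.404). Its dimmer probe set showed 0.01 (SE 0.47), with a sign that depended on the cows included.

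ATF3, a stress-induced factor of the ATF and CREB family that often acts as a repressor, showed the largest difference among the brightest probe sets of the 10 genes. It ran from 3.90 through 6.22 to 9.12 in stroma, and from 5.66 through 8.52 to 9.41 in epithelium. The ranges overlapped because cows differed widely, but within cows the stromal value was the lower in 5 of 6. The differences were -2.64, -2.24, -1.76, -2.34 and -1.65 in cows 1, 2, 4, 5 and 6, and 0.089 in cow 3, whose stroma held the highest stromal value. ATF3 averaged 6.30 ± 1.81 in stroma and 8.05 ± 1.54 in epithelium, 3.37-fold lower in stroma (difference -1.75, SE 0.43, 95% interval -2.73 to -0.78; limma, adjusted p = 0.0367). Without cow 3 the difference was -2.12 (limma, adjusted p = 0.0156). The call was lost without any other single cow (limma, adjusted p between 0.0773 and 0.114), with tissue alone in the model (0.243), with cow as a random block (0.190), with no filter (0.0531) and after centring on the median (-1.58, 0.0521).

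Spread across cows set ATF3 apart from the other members. Its SD exceeded that of 90.6% of tested genes in stroma and of 93.8% in epithelium. Of the other 9, IER2 had the highest rank, with an SD above that of 45.5% of tested genes in stroma and of 53.3% in epithelium, and MYC in stroma varied less than all but 1.74% of tested genes. The median SD of the 10 genes was 0.66 in stroma and 0.63 in epithelium, where all tested genes had 0.99 and 0.74. The tested genes were not matched to the members in brightness, so the part of brightness in these spreads was not tested.

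MYC, a helix-loop-helix factor that pairs with MAX and drives growth, ran from 8.72 through 9.04 to 9.35 in stroma, and from 8.13 through 8.50 to 9.34 in epithelium. It averaged 9.04 ± 0.24 in stroma and 8.63 ± 0.46 in epithelium. The difference of 0.42 (SE 0.35, 95% interval -0.37 to 1.20) was the highest of the members but did not pass (limma, adjusted p = 0.511), with 4 of 6 cows higher in stroma.

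DUSP1, a phosphatase that inactivates MAP kinases and is also induced by glucocorticoids, ran from 9.87 through 10.71 to 11.02 in stroma, and from 10.70 through 11.10 to 11.49 in epithelium. In each of the 6 cows the stromal value was the lower, by 0.14 to 1.07. The mean was 10.55 ± 0.50 in stroma and 11.06 ± 0.28 in epithelium, and the difference of -0.51 (SE 0.33, 95% interval -1.26 to 0.24) did not pass (limma, adjusted p = 0.397).

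IER2, a nuclear protein of the immediate early response, ran from 7.21 through 8.93 to 9.91 in stroma, and from 7.87 through 8.98 to 10.26 in epithelium. The mean was 8.75 ± 0.93 in stroma and 9.02 ± 0.78 in epithelium, with a difference of -0.27 (SE 0.51, 95% interval -1.43 to 0.89; limma, adjusted p = 0.792). Within cows it ran from -1.54 in cow 2 to 2.04 in cow 5. The other 2 IER2 probe sets fell outside the tested sets, with means of 3.17 and 1.44 in stroma and 3.08 and 1.63 in epithelium, close to or under the array medians, and no direction is read from them.

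IER3, a stress-inducible protein that affects cell survival, ran from 6.38 through 7.98 to 8.79 in stroma, and from 6.76 through 7.56 to 8.88 in epithelium. Its mean was 7.73 ± 0.88 in stroma and 7.63 ± 0.73 in epithelium, with 3 of 6 cows higher in stroma. The difference of 0.09 (SE 0.50, 95% interval -1.03 to 1.22; limma, adjusted p = 0.933) changed sign without cow 2 (-0.10) or cow 5 (-0.29).

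**Figure D3:**
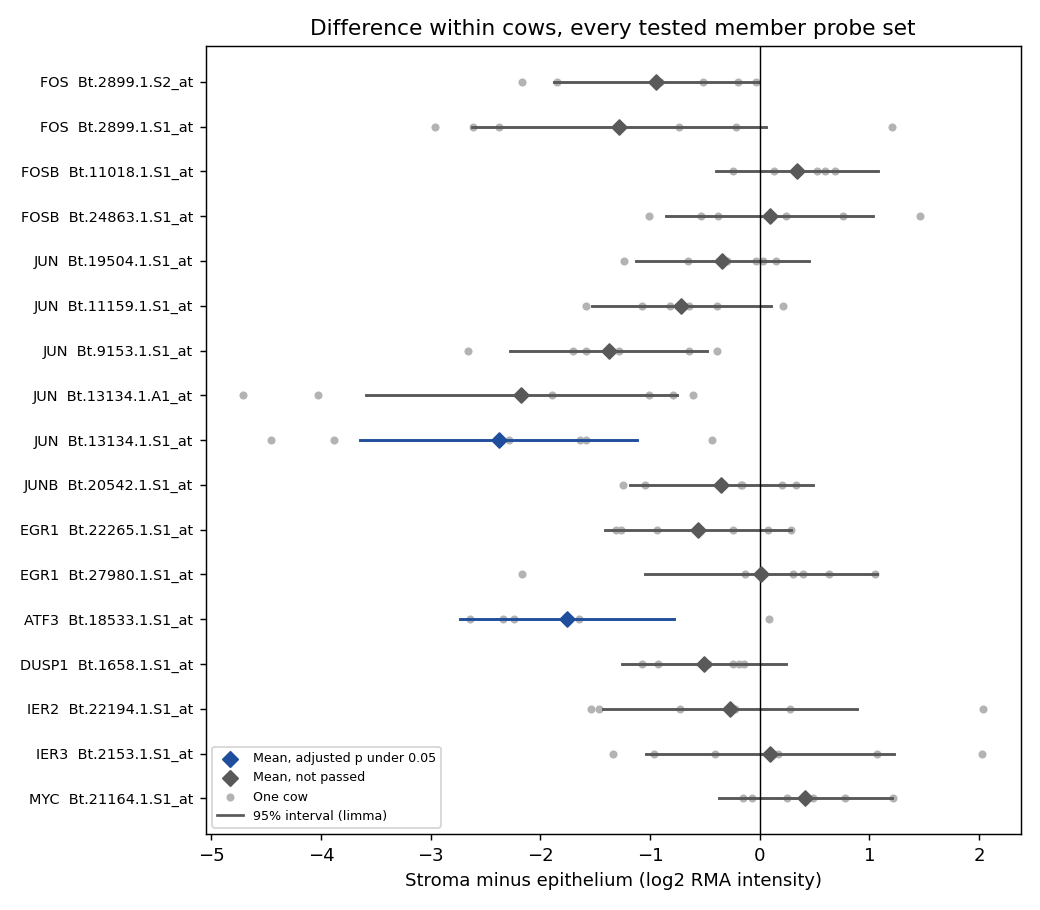
Stroma minus epithelium in log2 RMA intensity for each of the 17 tested member probe sets, with small points for single cows, a diamond at the mean and a line for the 95% interval of limma, coloured where the adjusted p was below 0.05. Only ATF3 and the JUN set Bt.13134.1.S1_at were called.

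Several members were low in cow 4. There, 5 of 10 members had their lowest stromal value and 5 of 10 their lowest epithelial value, against 16.3% of all tested genes in stroma and 10.8% in epithelium. JUNB (10.03) and IER3 (8.88) went the other way in epithelium, with their highest value in that cow. The mean of the 10 genes per cow was 9.44, 9.43, 9.76, 8.52, 9.55 and 9.44 in stroma of cows 1 to 6, and 10.08, 9.80, 10.14, 9.25, 9.75 and 9.44 in epithelium. The mean was lower in stroma in every cow, by 0.39 on average, although in cow 6 the tissues were equal to 2 decimals. The median of all tested probe sets was also lower in stroma in 5 of 6 cows (mean difference -0.17). In cow 5 that median was 4.75 in stroma and 5.15 in epithelium, and in cow 6 it was 5.09 and 5.36. The part of this shift in the member means was not tested. The stroma of cow 4 also had the highest mean of the luminal markers among stromal arrays (6.14, against 4.38 to 5.16 in the other 5), and the part of that in the low members was not tested. Without cow 4, the median correlation among members fell to about 0 in stroma (-0.00298).

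Correlation among the members was computed across the 6 cows within each tissue. Over the 45 pairs, the median Pearson r was 0.31 in stroma and 0.189 in epithelium, against 0.00895 and 0.00858 over all 13632031 pairs of tested genes. The members share libraries and were chosen for a common response, and these medians are given without a test. Of the 90 pairs in all, 2 in stroma and 4 in epithelium had an unadjusted p below 0.05 and 0 passed after Benjamini-Hochberg adjustment over the 90 (exact permutation over pairings, two-sided, lowest adjusted p = 0.250).

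The strongest pair was FOS with JUN in epithelium, the AP-1 partners (r = 0.990, exact permutation p = 0.00694; rho = 0.829, exact p = 0.0583; adjusted p = 0.250). Without cows 4 and 6, farthest from the median, r was 0.673. FOS with ATF3 in epithelium had r = 0.895 (exact permutation p = 0.0125; rho = 0.829, exact p = 0.0583) and 0.0127 without the same cows. JUN with ATF3 in epithelium had r = 0.860 (exact permutation p = 0.0250; rho = 0.60, exact p = 0.242) and -0.443 without them. In stroma, JUN with EGR1 had r = 0.944 (exact permutation p = 0.0444; rho = 0.371, exact p = 0.497), which was 0.251 without cows 1 and 4. For these 3 relations, FOS with ATF3, JUN with ATF3 and JUN with EGR1, r was far lower without the cows left out. Leaving out the cows farthest from the median narrows the range, so what the relations rested on was not tested. The lowest r in each tissue belonged to a pair with IER3. With JUNB in stroma it was -0.926 (exact permutation p = 0.00833; rho = -0.771, exact p = 0.103) and -0.626 without cows 3 and 5. With FOSB in epithelium it was -0.936 (exact permutation p = 0.00694; rho = -0.829, exact p = 0.0583) and -0.607 without cows 1 and 4.

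**Figure D4:**
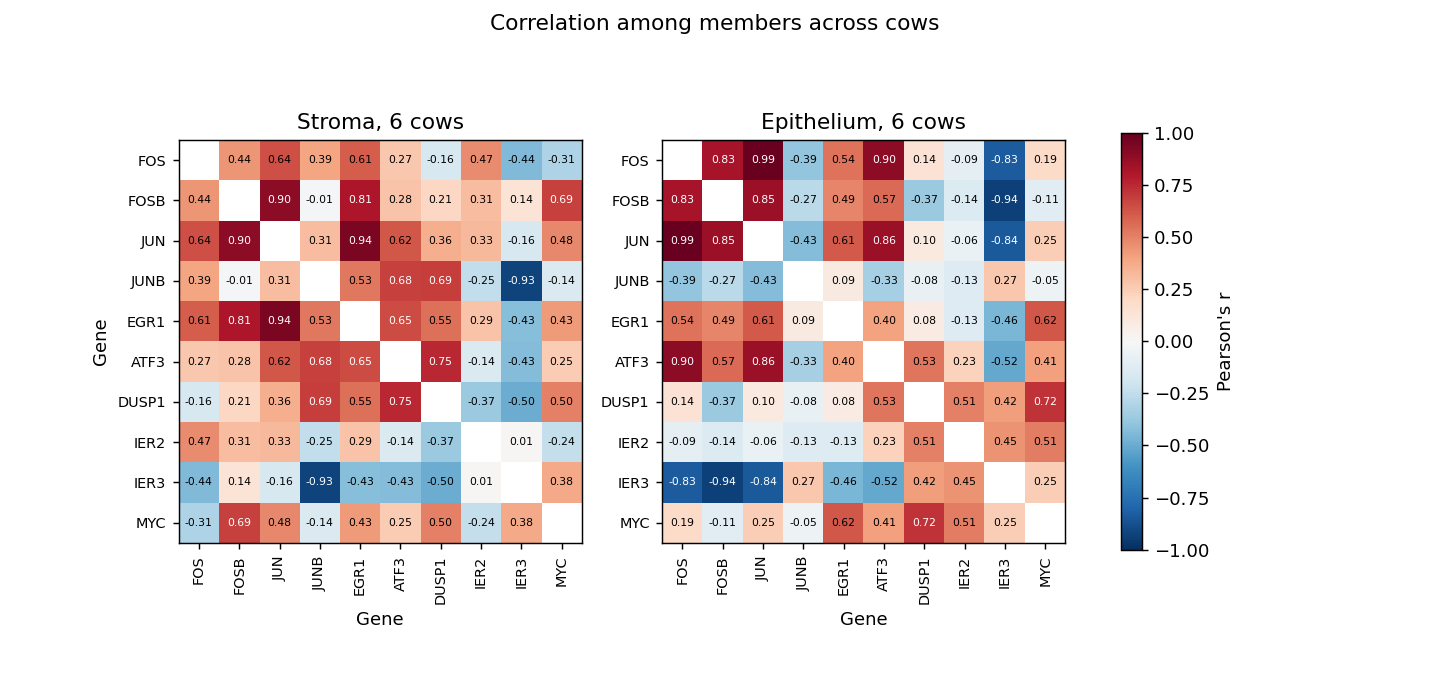
Pearson's r between members across 6 cows, in stroma on the left and epithelium on the right, with r printed in each cell. No pair passed the adjusted threshold in either tissue.

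A cow's level in stroma was compared with its level in epithelium for each member. The median r over the 10 genes was 0.308, against 0.109 over all tested genes, and it was -0.211 without cow 4. ATF3 had r = 0.842 (exact permutation p = 0.0319, adjusted p = 0.278 over 10 genes; rho = 0.829, exact p = 0.0583) and 0.971 without cows 3 and 4. FOSB had r = 0.874 (exact permutation p = 0.0556; rho = 0.429, exact p = 0.419) and 0.887 without cows 3 and 4. JUN had r = 0.903 (exact permutation p = 0.104; rho = 0.486, exact p = 0.356), which was 0.0527 without cows 1 and 4. DUSP1 had r = 0.608 (exact permutation p = 0.207; rho = 0.829, exact p = 0.0583) and 0.941 without cows 4 and 5. In all, r was above 0 for 6 of the 10 genes, against 58.1% of all tested genes, and the lowest was -0.253, for IER3. Of 10 genes, 0 passed after adjustment.

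Other genes of the response were read from lists written with earlier results of these data known. Of 25 other immediate-early transcription factors, 13 were tested, and 1 was called higher in stroma and 1 lower, against 4.48% and 4.62% of all tested genes. NR4A1, an orphan nuclear receptor, averaged 9.48 ± 0.42 in stroma and 7.72 ± 0.71 in epithelium, 3.39-fold higher in stroma (limma, adjusted p = 0.0115) and higher in 6 of 6 cows. KLF5, a Krüppel-like factor of epithelia, averaged 5.95 ± 1.06 in stroma and 8.22 ± 0.66 in epithelium, 4.84-fold lower in stroma (limma, adjusted p = 0.0165), but without cow 1 or 2 its adjusted p was 0.0596 or 0.0577. At an unadjusted p below 0.05, 6 of the 13 were higher and 2 lower in stroma, against 8.39% and 14.6% of all tested genes. The median difference was 0.21.

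Of 26 effectors, 16 were tested, 2 were called higher in stroma and 0 lower, against 4.48% and 4.62% of all tested genes, with 3 and 1 at an unadjusted limma p below 0.05. The chemokine CCL2 averaged 11.17 ± 0.79 in stroma and 8.38 ± 0.63 in epithelium, 6.93-fold higher in stroma (limma, adjusted p = 0.0108). The cytokine IL6 averaged 5.81 ± 2.30 in stroma and 1.71 ± 0.26 in epithelium (difference 4.10, limma, adjusted p = 0.00994). The epithelial values lay below the array medians, so the fold is not exact, and the stroma of cow 5 read 1.74. The list median was 0.27.

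Feedback inhibitors, the class to which DUSP1 belongs, had 11 of 23 genes tested. Of all tested genes, 4.48% were called higher in stroma and 4.62% lower. At an unadjusted limma p below 0.05 these shares were 8.39% and 14.6%. SPRY1, an inhibitor of receptor tyrosine kinase signalling, averaged 8.61 ± 0.74 in stroma and 6.72 ± 1.49 in epithelium. It was called higher in stroma (difference 1.89, SE 0.48; limma, adjusted p = 0.0425). Of the 11, 0 were called lower, with 2 higher and 1 lower at an unadjusted p below 0.05. The SPRY1 call was lost under 9 of 17 alternatives, with adjusted p up to 0.125 without a single cow. Of 34 upstream kinases and factors, 17 were tested and 0 were called in either direction, with 0 higher and 1 lower in stroma at an unadjusted p below 0.05. The lowest p belonged to MAX, which is in this list although it is the partner of MYC, and to the kinase MAP2K1. MAX was at 7.78 ± 1.03 in stroma and 9.02 ± 0.37 in epithelium (difference -1.24; limma, adjusted p = 0.117), and MAP2K1 differed by -0.93 (limma, adjusted p = 0.264).

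**Figure D5:**
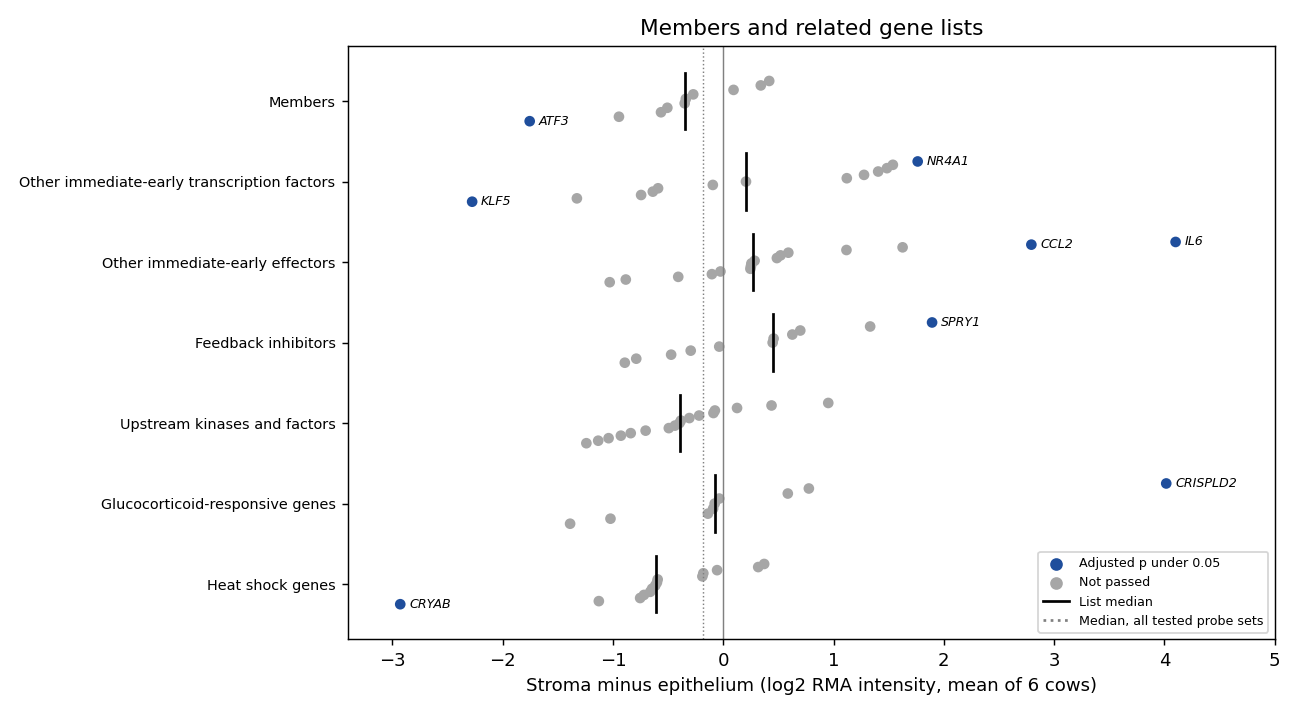
Stroma minus epithelium in log2 RMA intensity for the tested genes of each list, with the members on top, coloured and named where the adjusted p was below 0.05, a black bar at each list's median and a dotted line at the median of all tested probe sets (-0.18). The medians were -0.34 for the members and 0.21, 0.27, 0.45 and -0.40 for the next 4 lists.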

How the data were processed

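Stroma and epithelium were captured by laser from explants of 6 cows, and amplified RNA was hybridized to 12 arrays. The deposited values are log2 intensities that the authors made by RMA, normalizing a larger set of arrays together. Detection calls and scanner files were not used here, and the precision is limited by 6 arrays per tissue. Control probe sets were left out, and of the rest the brightest by mean were tested, as many as the study kept by detection calls. Symbols came from the platform annotation, matched by gene ID to the reference for 13283 probe sets.

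Differences were fitted in R 4.3.3 with limma 3.58.1, in a model of tissue and cow (as a fixed effect) with default eBayes settings, and p was adjusted by Benjamini-Hochberg over all tested probe sets. The study's methods fitted tissue alone, which was run as an alternative. The pairs come from the replicate numbers in the sample titles, with equal numbers read as the same cow. The titles do not name the animal. Deviations of the same cow correlated between tissues by 0.0257 to 0.201, and for 4 of 6 cows the own partner was the best match. The fit was tested on simulated data. Correlations used exact permutation over the pairings of 6 cows (SciPy 1.17.1), and Benjamini-Hochberg adjustment over 90 pairs.

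The text names all members, genes past the threshold in each list (the 2 with the lowest p where there were none), the 5 genes most like the members' mean profile, and 6 label checks. KLF4, GADD45A, KRT5 and KRT14 were chosen after their values were seen. The members and the lists were chosen with earlier results of these data known. A planned description of promoter and protein sequences was not made. Alternatives were no cow block and a random block, another eBayes prior, other filters, scalings and probe set rules, and leaving out cows.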

Additional observations from a re-analysis of the deposited data

Results flagged for a closer look

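Among the 30 groups of 6 values checked (each member in stroma, in epithelium and as a difference), 4 held a value far from the other 5, where chance would give about 5% of groups. In the stroma of cow 4, JUN was 9.58, with the next lowest cow at 11.17, and EGR1 was 9.50, with the next lowest cow at 10.88. In the epithelium of cow 4, JUN was 10.81, with the next at 11.54. The ATF3 difference of cow 3 was 0.089, where the nearest of the other cows was -1.65. Without cow 4, the differences of JUN and EGR1 were -0.16 and -0.41 and neither passed (limma, adjusted p = 0.844 and 0.629).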

How the results depend on the processing

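Of the 10 members, 9 kept the direction of their difference under all 17 alternatives, and IER3 did not. ATF3 was the only member called as reported, and its adjusted p ran from 0.0156 to 0.243. Without the replicate block ATF3 still differed by -1.75 (adjusted p = 0.243), and the number of members called lower in stroma became 0. It was 0 too with a random block (-1.75, 0.190), with no filter (-1.75, 0.0531), after centring on the median (-1.58, 0.0521) and without cows 5 and 6 (-1.64, 0.157). With the mean over probe sets it was 2, ATF3 and JUN (-1.40, 0.0368). Leaving out each cow gave 0 to 1 members called and ATF3 differences from -2.12 to -1.58. IER3 reversed without cows 5 and 6 (-0.27) and ran from -0.29 to 0.38 without single cows. The dimmer probe sets of FOSB and EGR1, both far above the array medians, also reversed. These were FOSB Bt.24863.1.S1_at (-0.18 to 0.31 without single cows) and EGR1 Bt.27980.1.S1_at (-0.19 to 0.45, and -0.046 without cows 5 and 6). Over all probe sets, 455 were called higher in stroma and 477 lower, and after centring on the median 516 and 361. With the brightest 5000 tested, these were 239 and 274, 245 were lower without cows 5 and 6, and 267 to 404 without single cows. In the lists, no block gave 0 feedback inhibitors higher in stroma, and single cows left out gave 0 to 1, as they did for transcription factors lower in stroma. Centring on the median gave 2 transcription factors higher in stroma, NR4A1 and KLF4 (1.58, adjusted p = 0.0447), and 3 effectors, with GADD45A (1.80, 0.0458) added. The median correlation of a member between tissues ran from -0.211 to 0.466 without single cows. The cause of these changes was not tested. With 6 cows, the lowest difference called over all tested probe sets was 1.30 higher and 1.25 lower in stroma on the log2 scale. On their brightest probe sets, the 9 members not called had smaller ones. These values are no limit above which a difference is called. The JUN sets Bt.9153.1.S1_at (-1.38) and Bt.13134.1.A1_at (-2.17) and the dimmer FOS set (-1.28) were not called.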

Other observations

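The medium held hydrocortisone, and a list of glucocorticoid-responsive genes was read with the members. Of 17 genes, 9 were tested, 1 was called higher in stroma and 0 lower, with 1 and 1 at an unadjusted p below 0.05. Over all tested genes, 4.48% were called higher and 4.62% lower, and 8.39% and 14.6% at an unadjusted p below 0.05. CRISPLD2, a secreted protein, averaged 8.34 ± 0.35 in stroma and 4.32 ± 1.19 in epithelium, 16.2-fold higher in stroma (limma, adjusted p = 0.000867) and higher in 6 of 6 cows. Its epithelial value in cow 4 (2.87) lay below every array median, so this fold is not exact. The list median was -0.08. Of 15 heat shock genes, 14 were tested, 0 were higher in stroma and 1 lower (0 and 1 also at an unadjusted p below 0.05), CRYAB, a small heat shock protein, at 3.05 ± 0.66 in stroma and 5.98 ± 1.02 in epithelium (difference -2.93; limma, adjusted p = 0.00461). The stromal mean lay within the range of the array medians, so the fold is not exact. The list median was -0.61.

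The 5 genes whose values were most like the mean profile of the 10 members, each set to the same mean in both tissues, were SLC25A37 (r = 0.868), HNRNPLL (0.855), GOLGA4 (0.837), TOB1 (0.830) and DNAJC24 (0.824). They are the highest of 5212 genes ranked over 12 arrays, so high values among so many genes are no finding, and they share libraries with the members. TOB1 is an antiproliferative protein. The differences between tissues of these 5 ran from -1.10 to -0.11, and 0 passed (limma, adjusted p between 0.178 and 0.904).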
